A study of Homo sapiens with 18 samples.

Results

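The 10 genes described here encode ETS-domain transcription factors, namely ETS1, ETS2, ELF1, ELF3, EHF, ELK3, ELK4, ETV6, GABPA and ERF. They were found by symbol in the deposited expression table of OVCAR5 cells, where they were 10 of 60483 gene identifiers, and all 10 were among the 13789 genes tested. Measured values entered the choice: ETS1 was selected on its level with oleate, which was higher than without fatty acid, and the other 9 were added as genes of the same family. The comparison of oleate with control is therefore a description with no test for each of the 10 genes, and so is every comparison of ETS1 that sets oleate samples against others. Comparisons of samples with and without the inhibitor, which hold as many oleate samples on either side, are tested.

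ETS factors share a winged-helix DNA-binding domain that reads short DNA stretches built around the letters GGAA, and their members differ in partners and in the direction of their effect. Many are end points of growth factor signalling, since ETS1, ETS2, the ELK proteins and ERF are phosphorylated by kinases of that route. ETS1 is widely studied in tumour invasion and in endothelial and lymphoid cells, whereas ELF3 and EHF are largely restricted to epithelia, where they take part in differentiation. Ovarian carcinoma cells are of epithelial character, so both kinds of factor can be present in the same culture.

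RNA was measured in 18 samples of OVCAR5, an established human ovarian cancer cell line that the labels give as wild type and as a high grade serous adenocarcinoma. After a day of standard culture in six-well plates, the cells had been kept for 24 h in medium with albumin free of fatty acids, which all groups received. The 6 conditions had 3 replicates each: the vehicle DMSO, 1 µM CAY10566, 50 µM stearate with DMSO, 50 µM stearate with CAY10566, 50 µM oleate with DMSO and 50 µM oleate with CAY10566. The desaturase SCD1 turns stearate, which is saturated, into the monounsaturated oleate, and CAY10566 is an inhibitor of SCD1. The 6 samples without added fatty acid, with or without the inhibitor, are called control below. Values are in TPM, the estimated share of a gene among all transcripts corrected for transcript length, so levels of different genes can be set side by side. TPM keeps no read number, and the depth behind each value is unknown. In such bulk samples, fewer cells that express a gene and less RNA per cell cannot be told apart, and the replicates are culture wells of 1 line, so p-values measure the spread between these samples, which may be technical.

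The DNA that the family itself reads can be looked for in front of the genes described. RefSeq promoter windows of 300 bases, from 250 bases before to 50 bases after a transcript start (GRCh38.p14), were at hand for 9 of the 10 genes and not for ETS1, in 16 windows. The letters GGAA, counted on both strands (TTCC on the other), occurred in 14 of the 16 windows, 0 to 8 times with a median of 2.5, and in 95.5% of all 35116 promoter windows, with a median of 3. The longer form CCGGAAG, which holds GGAA within it and was counted on both strands, occurred in windows of 2 genes, ELK4 and GABPA, and in 10.3% of all windows. The sequences that follow are the windows of ELF3 and EHF, which encode the epithelial factors and whose levels differed in opposite directions between stearate and oleate, and of ELK4 for comparison as 1 of the pair with CCGGAAG. Each is written 5′ to 3′ on the strand of its gene, with GGAA and TTCC in capitals. The ELF3 window is chr1:202010337-202010636 (plus strand), those of EHF are chr11:34624007-34624306 and chr11:34632316-34632615 (plus strand), and that of ELK4 is chr1:205631962-205632261 (minus strand).
ELF3: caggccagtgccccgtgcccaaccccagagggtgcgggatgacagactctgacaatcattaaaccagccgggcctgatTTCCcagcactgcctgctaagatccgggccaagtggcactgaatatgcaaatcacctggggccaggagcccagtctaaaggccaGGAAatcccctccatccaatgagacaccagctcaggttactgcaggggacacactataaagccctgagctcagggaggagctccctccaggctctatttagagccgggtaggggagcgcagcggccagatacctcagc
EHF, first start: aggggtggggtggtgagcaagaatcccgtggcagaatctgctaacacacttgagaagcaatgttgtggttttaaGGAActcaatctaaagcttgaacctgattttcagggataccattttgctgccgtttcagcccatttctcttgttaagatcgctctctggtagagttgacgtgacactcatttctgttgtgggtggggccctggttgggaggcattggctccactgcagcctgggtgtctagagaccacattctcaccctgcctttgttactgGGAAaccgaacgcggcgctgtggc
EHF, second start: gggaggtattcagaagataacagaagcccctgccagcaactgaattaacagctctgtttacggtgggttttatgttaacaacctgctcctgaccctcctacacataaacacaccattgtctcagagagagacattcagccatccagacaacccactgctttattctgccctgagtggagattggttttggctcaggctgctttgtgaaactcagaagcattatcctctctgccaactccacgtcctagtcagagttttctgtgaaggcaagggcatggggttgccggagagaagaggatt
ELK4: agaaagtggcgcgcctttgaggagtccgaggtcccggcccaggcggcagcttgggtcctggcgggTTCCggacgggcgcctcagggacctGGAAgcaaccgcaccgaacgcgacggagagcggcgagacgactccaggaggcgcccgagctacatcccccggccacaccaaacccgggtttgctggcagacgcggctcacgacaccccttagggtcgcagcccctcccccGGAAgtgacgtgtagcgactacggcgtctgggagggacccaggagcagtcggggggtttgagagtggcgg
The ELF3 window holds GGAA once and TTCC once, the first EHF window holds GGAA at 2 places, and the second EHF window holds neither. In the ELK4 window the CCGGAAG stretch lies in the second part, after a run of C. A match of letters is a description and does not show that a factor binds there.

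Differences between groups were tested with limma on log2(TPM + 1) over all 13789 genes whose mean was 1 TPM or more. A gene was called when its Benjamini-Hochberg adjusted p was under the false discovery rate (FDR) of 0.05 and its log2 fold change exceeded 0.3219 in either direction. Every log2 fold change is on the log2(TPM + 1) scale, which slightly understates changes of low genes. A single library stood apart. CAY10566 replicate 3, a control sample, exceeded the other 5 control samples in 8 of the 10 genes, all but ELF3 and GABPA, and in 5524 of all tested genes (40.1%). Its median-of-ratios size factor was 1.02, against 0.942 to 0.968 in the other control samples, 0.976 to 1.05 with stearate and 0.997 to 1.06 with oleate. The largest of these gaps were in ETS1, where it held 92.5 TPM against 62.9 to 70.5 in the other control samples, and in EHF, where it held 74.6 against 48.9 to 56.7. The differences of the 10 genes between stearate and control are therefore given with and without this sample, and for the other genes it is said where a call printed for stearate against control changes without it. The size factors moved with the fatty acid groups as well. Rescaling by them took the median over all genes from 0.0872 to -0.001 for oleate against control and from 0.0599 to 0.0066 for stearate against control, and it is said where a call printed for stearate against control depends on this rescaling.

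ETS1 had the highest level of the 10 genes in each fatty acid group, and ETV6 the lowest. In the control samples, the mean was 71.1 ± 10.8 TPM for ETS1 (SD, n = 6), 56.0 ± 9.49 for EHF, 51.1 ± 3.44 for ERF and 39.5 ± 5.58 for ELF3. Next came ELK3 with 30.4 ± 2.32 TPM, ETS2 with 29.4 ± 2.52 and ELF1 with 18.2 ± 0.935, and the lowest were ELK4 with 11.2 ± 1.51, GABPA with 7.35 ± 0.935 and ETV6 with 6.88 ± 0.246. The ranges of ETS1, EHF and ERF overlapped from neighbour to neighbour in this order, as did those of ELF3, ELK3 and ETS2 and those of GABPA and ETV6, so the order within these runs is not separated beyond the spread. ERF, ETS2, ELF1 and ELK4 were each separated from the next. With oleate, ETS1 (105 ± 5.64 TPM) no longer overlapped with EHF (75.5 ± 6.82), nor EHF with ERF (60.2 ± 1.12), and ELF3 (37.4 ± 4.17) overlapped with ELK3 (36.0 ± 1.62). With stearate, the order of means from ETS1 (67.4 ± 5.48) over EHF (62.3 ± 4.46) and ERF (50.6 ± 5.03) to ELF3 (47.3 ± 2.34) had overlapping ranges at each step.

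The other 18 human ETS-domain genes give the setting. Of these, 8 passed the filter. ETV5 (71.2 TPM over the 18 samples) and ETV4 (64.2), both of the PEA3 group, stood beside ETS1 (81.1) and EHF (64.6). ELK1 followed with 27.4 TPM, ELF4 with 19.1, ELF2 with 14.8, ETV3 with 11.0, ETV1 with 8.50 and ETV2 with 1.55. In 3 places 1 of the 10 genes has another ETS gene as a neighbour on its chromosome, and there the neighbour was close to 0. On chromosome 11, ETS1 (128458761 to 128587558, GRCh38) and FLI1, a factor of endothelial and blood cells, are 98976 bases apart, with 0 genes of the table between them, and had 81.1 and 0.0178 TPM. ELF5 and EHF, also on chromosome 11 and 95899 bases apart with 2 genes between them, had 0.248 and 64.6 TPM. ERG and ETS2, on chromosome 21 and 143402 bases apart with 1 gene between them, had 0.0256 and 31.6 TPM.

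**Figure D1:**
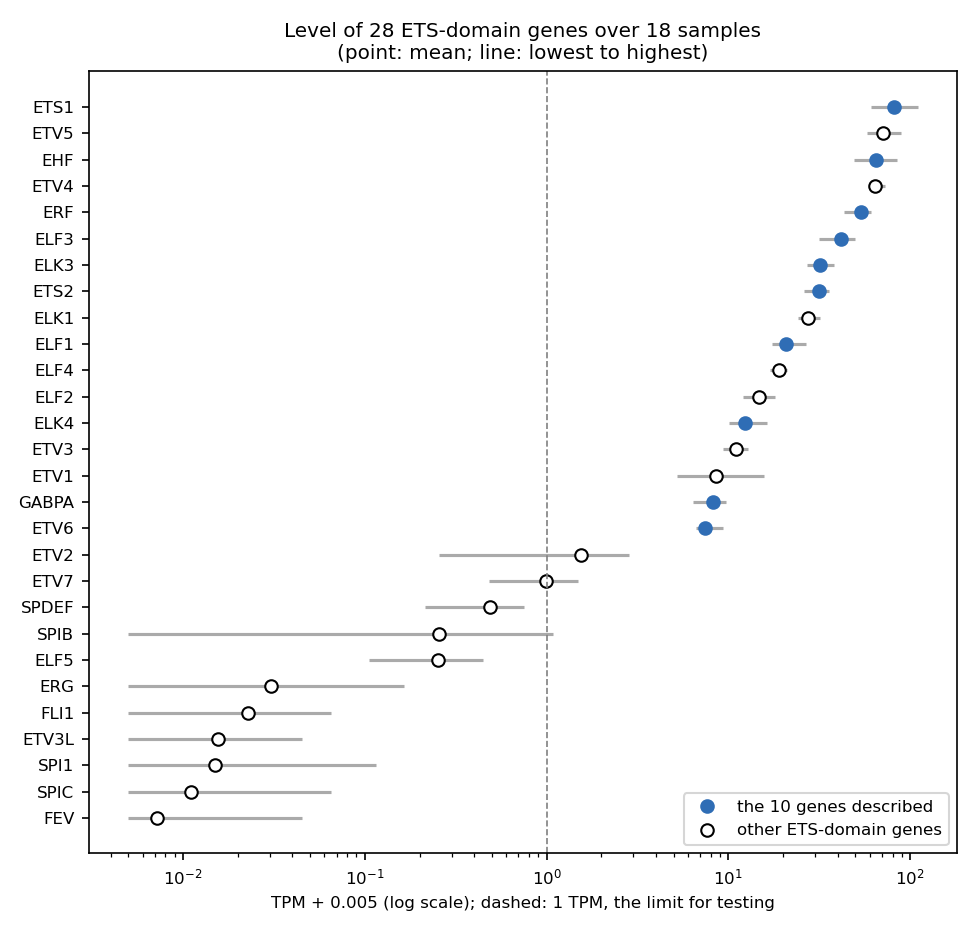
Mean TPM over 18 samples of 28 ETS-domain genes on a log axis (0.005 added so that 0 can be drawn), with lines from the lowest to the highest sample. ETS1 is at the top with 81.1 TPM, the 10 genes described all lie above the dashed limit of 1 TPM, and FLI1, ERG and ELF5 lie below it.

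The question of the fatty acid comparisons was how gene expression differs between cells given a saturated fatty acid, its monounsaturated product, or neither. For stearate against control, 0 of the 10 genes were called by limma, against 5.35% of all genes. At the FDR alone 3 passed (ELF1, ELF3 and GABPA), against 19.4% of all genes, and the same 3 had an unadjusted p under 0.05. For stearate against oleate, ETS1, chosen on its oleate level, was past both limits and is set aside. Of the other 9, 1 was called, ELF3, which was higher with stearate, against 6.37% of all genes. At the FDR alone 6 of these 9 passed, against 21.1% of all genes: ELF3 was higher and EHF, ELK3, ELK4, ERF and ETS2 were lower. For oleate against control, the comparison used in the choice, 3 were past both limits (ETS1, EHF and ELK4) beside 6.9% of all genes, and 9 at the FDR alone beside 25.7%, and nothing is read from these counts.

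The median log2 fold change of the 10 genes was 0.09 for stearate against control, beside 0.06 for all tested genes. As descriptions, since the choice of ETS1 used the oleate samples, it was -0.20 for stearate against oleate, beside -0.03, and 0.24 for oleate against control, beside 0.09. Among the 9 genes other than ETS1 the median for stearate against oleate was the ETS2 value of -0.15. Without CAY10566 replicate 3, 0 of the 10 genes were called for stearate against control, beside 7.72% of all genes. At the FDR alone EHF and ETS2 then passed as well as ELF1, ELF3 and GABPA, beside 3696 of the 13789 genes. The count for stearate against oleate was again 2 with ETS1 included, beside 6.73%, and the count for oleate against control was again 3, beside 11.3%.

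**Figure D2:**
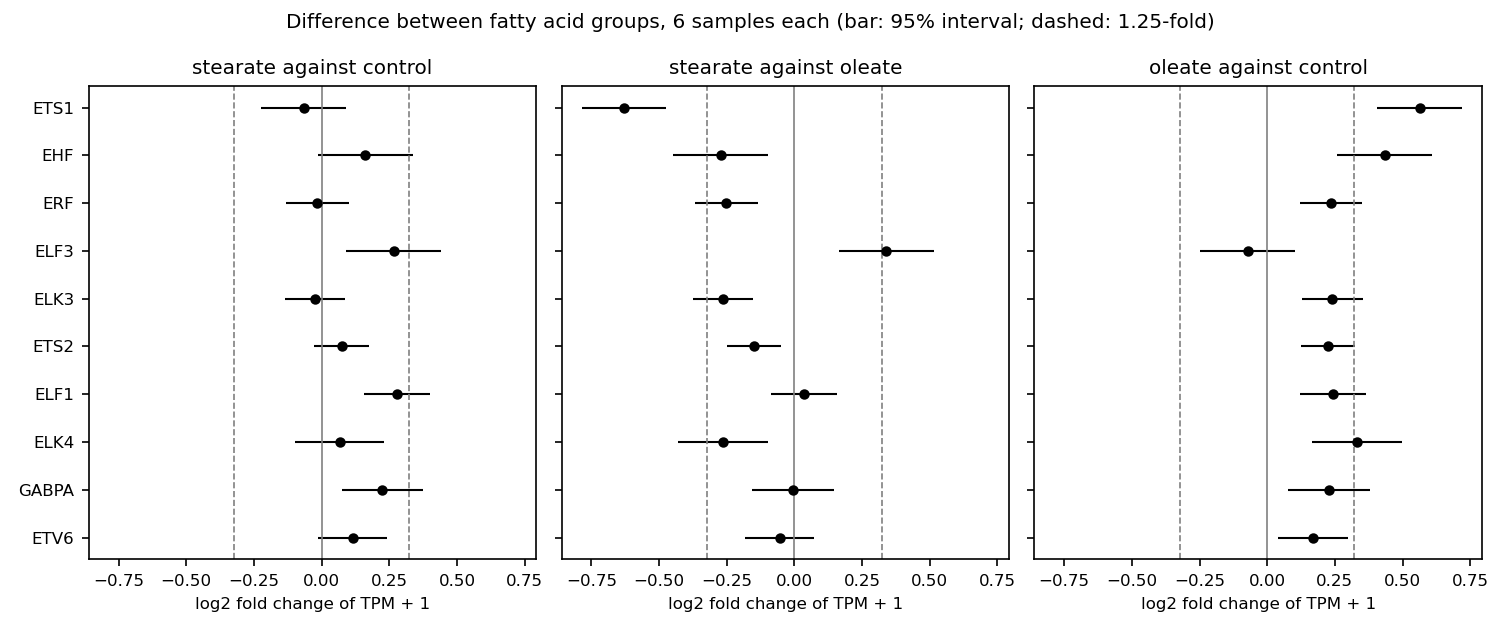
Log2 fold change of TPM + 1 (horizontal axis) for each of the 10 genes in the 3 comparisons of fatty acid groups, 6 samples each, with 95% intervals from limma; dashed lines mark the fold limit of 0.3219. ETS1 is lowest for stearate against oleate (-0.63) and highest for oleate against control (0.56), and ELF3 is the gene above that limit for stearate against oleate (0.34).

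**Figure D3:**
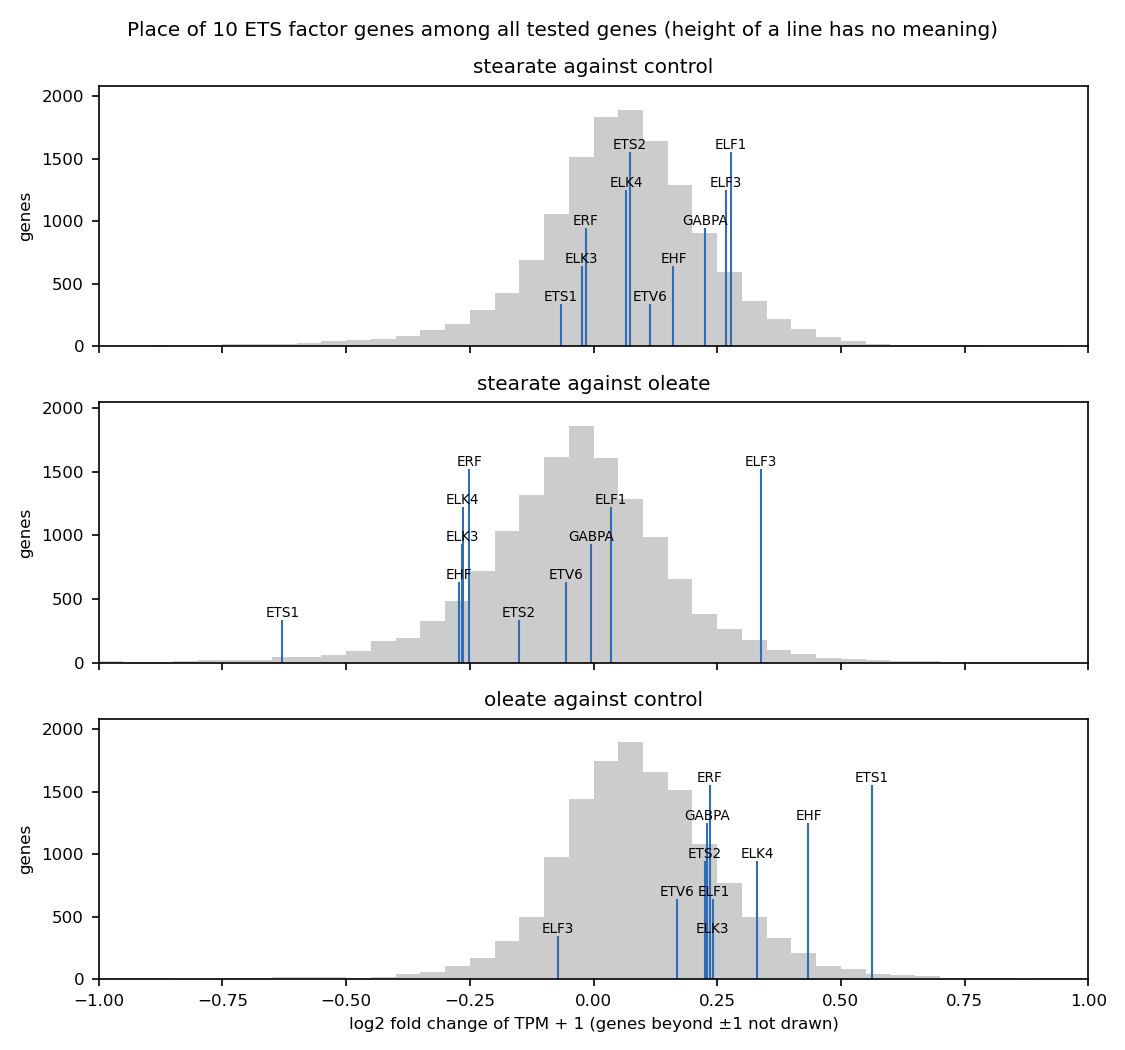
Histograms of the log2 fold change of the tested genes in the 3 comparisons, with vertical lines at the 10 genes described; the height of a line has no meaning. For oleate against control ETS1 is at place 150 of 13789 from the highest, and for stearate against oleate ELF3 is at place 369.

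ETS1, the founding member of the family, had a narrow range in most conditions and a separate level with oleate. The DMSO samples held 65.3, 62.9 and 66.7 TPM, and those with CAY10566 alone 68.6, 70.5 and 92.5. With stearate, the DMSO samples held 75.6, 71.6 and 60.8 TPM and the CAY10566 samples 63.4, 65.1 and 68.1. With oleate, the DMSO samples held 108, 110 and 103 TPM and the CAY10566 samples 108, 104 and 94.6. All 6 oleate samples lay above all 12 others, and the closest pair was 94.6 TPM with oleate against 92.5 in CAY10566 replicate 3. The oleate mean was thus 105 ± 5.64 TPM against 71.1 ± 10.8 in control, a log2 fold change of 0.56 ± 0.07 (SE). It was 0.64 ± 0.05 without CAY10566 replicate 3, 0.71 within the DMSO samples, 0.41 within the CAY10566 samples and 0.55 within these without that sample. After rescaling by size factors the ETS1 value was 0.46, and after removing each sample's mean and its trend on transcript length and GC content it was 0.41. As a description, 98.9% of all tested genes had a lower value than ETS1 in this comparison. Stearate against control, which does not use the oleate samples, gave ETS1 a log2 fold change of -0.07 (95% interval -0.22 to 0.09, adjusted p = 0.559), and without CAY10566 replicate 3 it was 0.01 (95% interval -0.10 to 0.12, adjusted p = 0.898). It was 0.09 within the DMSO samples (adjusted p = 0.568), -0.22 within the CAY10566 samples (adjusted p = 0.214) and -0.08 within these without that sample (adjusted p = 0.555). Removing each sample's mean and its trend on transcript length and GC content gave -0.18, past the FDR (adjusted p = 0.0221). Stearate against oleate gave ETS1 -0.63 ± 0.07 and is again a description.

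ETS2, the closest relative of ETS1, had a smaller range. Its control samples spanned 26.2 to 33.7 TPM (median 29.2), the stearate samples 29.1 to 32.7 (median 30.7) and the oleate samples 32.6 to 35.7 (median 34.5). The stearate and oleate ranges of ETS2 touched, with 5 of 6 stearate samples below every oleate sample. The log2 fold change of stearate against oleate was -0.15 (SE 0.05, adjusted p = 0.0312), under the fold limit, and after rescaling by size factors the adjusted p was 0.0622. For stearate against control it was 0.07 (adjusted p = 0.292), and 0.11 without CAY10566 replicate 3 (adjusted p = 0.0488).

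ELF3, an epithelial factor induced in differentiating and inflamed epithelia, had a higher level under stearate than under oleate. The DMSO samples held 41.2, 42.7 and 44.9 TPM, and those with CAY10566 alone 33.5, 31.5 and 43.0. With stearate, the DMSO samples held 43.7, 48.0 and 49.2 TPM and the CAY10566 samples 48.2, 45.3 and 49.7. With oleate, the DMSO samples held 42.5, 34.4 and 36.7 TPM and the CAY10566 samples 31.3, 41.2 and 38.1. Every stearate sample lay above every oleate sample, while 5 of the 6 stearate samples lay above all control samples and the oleate and control ranges overlapped. ELF3 was called for stearate against oleate, with a log2 fold change of 0.34 ± 0.08 (SE, 95% interval 0.16 to 0.51, adjusted p = 0.0073), and 97.3% of all tested genes had a lower value. The size was close to the fold limit: it fell short of it without oleate+DMSO replicate 2 (0.32, adjusted p = 0.0188) and without oleate+CAY10566 replicate 1 (0.29, adjusted p = 0.0208). Against control, ELF3 gave 0.27 ± 0.08 (adjusted p = 0.0317), which passed the FDR but not the fold limit, and without CAY10566 replicate 3 it was 0.29 (adjusted p = 0.0193). After rescaling by size factors the adjusted p was 0.0923. Within the CAY10566 samples the stearate value was 0.41, past both limits in the model of all 6 conditions (adjusted p = 0.0441) and not when those samples were fitted alone (adjusted p = 0.159). Within the DMSO samples it was 0.12 (adjusted p = 0.469 and 0.302 in the same order). For oleate against control the ELF3 value was -0.07 ± 0.08.

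EHF, the other epithelial factor of this set and a relative of ELF3, differed in the opposite direction between the fatty acids. Its DMSO samples held 51.3, 48.9 and 53.3 TPM, and those with CAY10566 alone 56.7, 51.3 and 74.6. With stearate, the DMSO samples held 68.4, 63.9 and 57.2 TPM and the CAY10566 samples 57.9, 65.6 and 60.5. With oleate, the DMSO samples held 69.0, 78.5 and 84.8 TPM and the CAY10566 samples 78.8, 75.7 and 66.3. The stearate samples lay mostly between those of control and oleate, and both neighbouring ranges overlapped. Stearate against oleate gave EHF -0.27 ± 0.08 (SE, adjusted p = 0.0261), past the FDR and short of the fold limit. Over the alternatives, which include fits of fewer samples, the adjusted p of this difference spanned 0.00218 to 0.313. Stearate against control gave 0.16 (95% interval -0.01 to 0.34, adjusted p = 0.183). Without CAY10566 replicate 3 that value was 0.25 ± 0.06 (adjusted p = 0.00678), and the 6 stearate samples then lay above the 5 control samples. As a description, oleate against control gave EHF 0.43 ± 0.08, and 0.52 without CAY10566 replicate 3.

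Since ELF3 and EHF come from the same sample, their ratio is free of any scaling of a whole library. This ratio was chosen after the values were seen and is given without a test. It was 0.803, 0.873 and 0.843 in the DMSO samples and 0.590, 0.615 and 0.577 with CAY10566 alone, so these conditions did not overlap and CAY10566 replicate 3, which stood apart in EHF, did not stand apart in the ratio. With stearate it ranged from 0.638 to 0.859 over the 6 samples (mean 0.765 ± 0.0877, SD), and with oleate from 0.398 to 0.615 (mean 0.500 ± 0.0891). All stearate samples thus lay above all oleate samples. With either fatty acid, the ranges with and without CAY10566 overlapped.

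**Figure D4:**
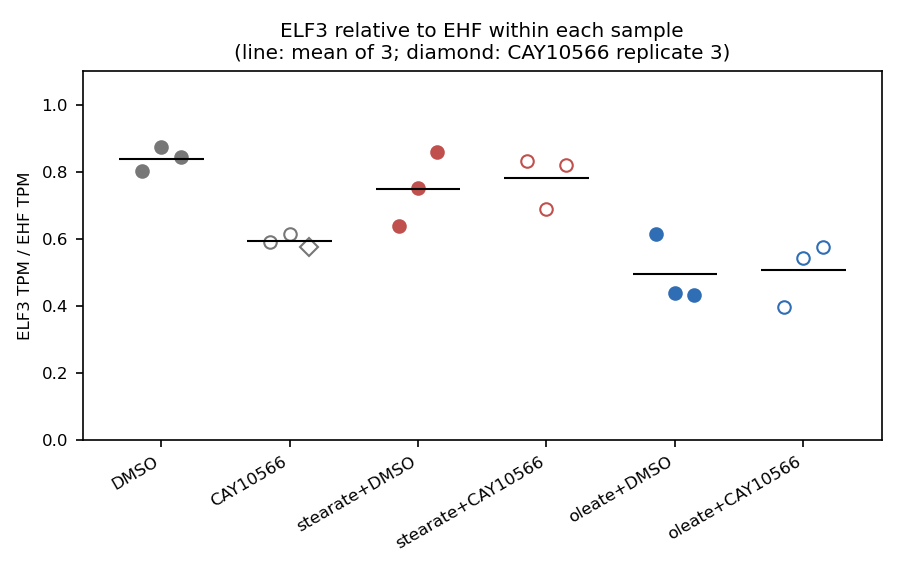
ELF3 TPM divided by EHF TPM (vertical axis, from 0) in each of the 18 samples by condition, with lines at the mean of 3 replicates and CAY10566 replicate 3 as a diamond. The oleate samples (0.398 to 0.615) lie below all stearate samples (0.638 to 0.859), and the samples with CAY10566 alone (0.577 to 0.615) lie below the DMSO samples (0.803 to 0.873).

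ELF1, a broadly expressed ETS factor also known from lymphoid cells, was higher with either fatty acid than without. Its control samples spanned 17.38 to 19.95 TPM (median 17.9), its stearate samples 20.1 to 26.8 (median 22.1) and its oleate samples 20.1 to 22.9 (median 21.7). The fatty acid samples lay above all control samples, and the ranges with stearate and with oleate overlapped. Stearate against control gave ELF1 0.28 ± 0.06 (SE, adjusted p = 0.00286), past the FDR and short of the fold limit, and the adjusted p was 0.00246 after rescaling by size factors and 0.00139 without CAY10566 replicate 3. Within the DMSO samples, where stearate gave 0.36, ELF1 was past both limits in the model of all 6 conditions (adjusted p = 0.0132) and when fitted alone (adjusted p = 0.0387), and after rescaling by size factors the model gave 0.27, short of the fold limit (adjusted p = 0.017). Within the CAY10566 samples it was 0.20 and passed neither limit (adjusted p = 0.21 in that model and 0.205 when fitted alone). Stearate against oleate gave 0.04 (95% interval -0.09 to 0.16, adjusted p = 0.714), and oleate against control 0.24 as a description.

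ELK3 and ELK4 are ternary complex factors, which bind DNA together with the serum response factor SRF, and both were lower with stearate than with oleate without passing the fold limit. ELK3 spanned 27.2 to 34.0 TPM in control (median 30.2), 27.0 to 33.1 with stearate (median 29.5) and 34.4 to 38.4 with oleate (median 35.9). All 6 oleate samples of ELK3 exceeded all others. Stearate against oleate gave ELK3 -0.27 ± 0.05 (SE, adjusted p = 0.00152), and stearate against control -0.02 (95% interval -0.14 to 0.09, adjusted p = 0.784). ELK4 held 10.5, 10.1 and 10.4 TPM in DMSO and 11.6, 10.3 and 14.0 with CAY10566 alone. With stearate ELK4 spanned 10.4 to 13.1 TPM (median 11.6) and with oleate 11.9 to 16.2 (median 14.3), with an overlap between them. Stearate against oleate gave ELK4 -0.26 ± 0.08 (SE, adjusted p = 0.0234), and stearate against control 0.07 (95% interval -0.10 to 0.23, adjusted p = 0.586). For stearate against oleate, the adjusted p over the alternatives spanned 0.000426 to 0.0709 for ELK3 and 0.00616 to 0.316 for ELK4. Without CAY10566 replicate 3, stearate against control gave 0.0084 for ELK3 (adjusted p = 0.922) and 0.13 for ELK4 (adjusted p = 0.174). The description for oleate against control was 0.24 ± 0.05 for ELK3 and 0.33 ± 0.08 for ELK4, and for ELK4 it was 0.39 without CAY10566 replicate 3 and 0.24 after rescaling by size factors.

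GABPA, the DNA-binding subunit of GABP, a regulator of nuclear genes for mitochondrial respiration and of mitochondrial transcription, had a lower level than ELF1. It held 7.04, 6.36 and 7.15 TPM in DMSO and 8.66, 6.59 and 8.33 with CAY10566 alone. With stearate it spanned 7.53 to 9.76 TPM (median 8.82) and with oleate 8.29 to 9.03 (median 8.82). The DMSO samples lay below all samples with fatty acid, whereas those with CAY10566 overlapped with them. Stearate against control gave GABPA 0.23 ± 0.07 (SE, adjusted p = 0.0353), past the FDR and short of the fold limit, and without CAY10566 replicate 3 it was 0.26 (adjusted p = 0.0142). The adjusted p was 0.0651 after rescaling by size factors, and removing each sample's mean and its trend on transcript length and GC content gave 0.09 (adjusted p = 0.334). Within the DMSO samples it was 0.36 and past both limits in the model of all 6 conditions (adjusted p = 0.0251) and when fitted alone (adjusted p = 0.0185), and after rescaling by size factors the model gave 0.28, short of the fold limit (adjusted p = 0.0462). Within the CAY10566 samples it was 0.09 and passed neither limit (adjusted p = 0.696 in that model and 0.786 when fitted alone). Between stearate and oleate GABPA had -0.0044 (95% interval -0.16 to 0.15, adjusted p = 0.977).

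ETV6 and ERF repress transcription, and ERF is moved out of the nucleus when it is phosphorylated. ERF was narrow in control (47.4 to 56.2 TPM, median 50.9), wider with stearate (43.1 to 58.4, median 50.7) and narrow with oleate (58.0 to 61.1, median 60.5). The oleate samples of ERF lay above all control samples and above 5 of the 6 stearate samples. Stearate against oleate gave ERF -0.25 ± 0.06 (SE, adjusted p = 0.00324), past the FDR and short of the fold limit. In the CAY10566 samples fitted alone it was -0.34 and past both limits (adjusted p = 0.0347), and in the DMSO samples -0.17 (adjusted p = 0.108). Stearate against control gave ERF -0.02 (95% interval -0.13 to 0.10, adjusted p = 0.870). ETV6 spanned 6.66 to 7.28 TPM in control (median 6.79), 7.17 to 8.30 with stearate (median 7.42) and 6.98 to 9.31 with oleate (median 7.65). Without CAY10566 replicate 3, stearate against control gave 0.01 for ERF (adjusted p = 0.897) and 0.13 for ETV6 (adjusted p = 0.143). With all samples it gave ETV6 0.11 (95% interval -0.01 to 0.24, adjusted p = 0.199), and stearate against oleate -0.05 (95% interval -0.18 to 0.07, adjusted p = 0.573).

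**Figure D5:**
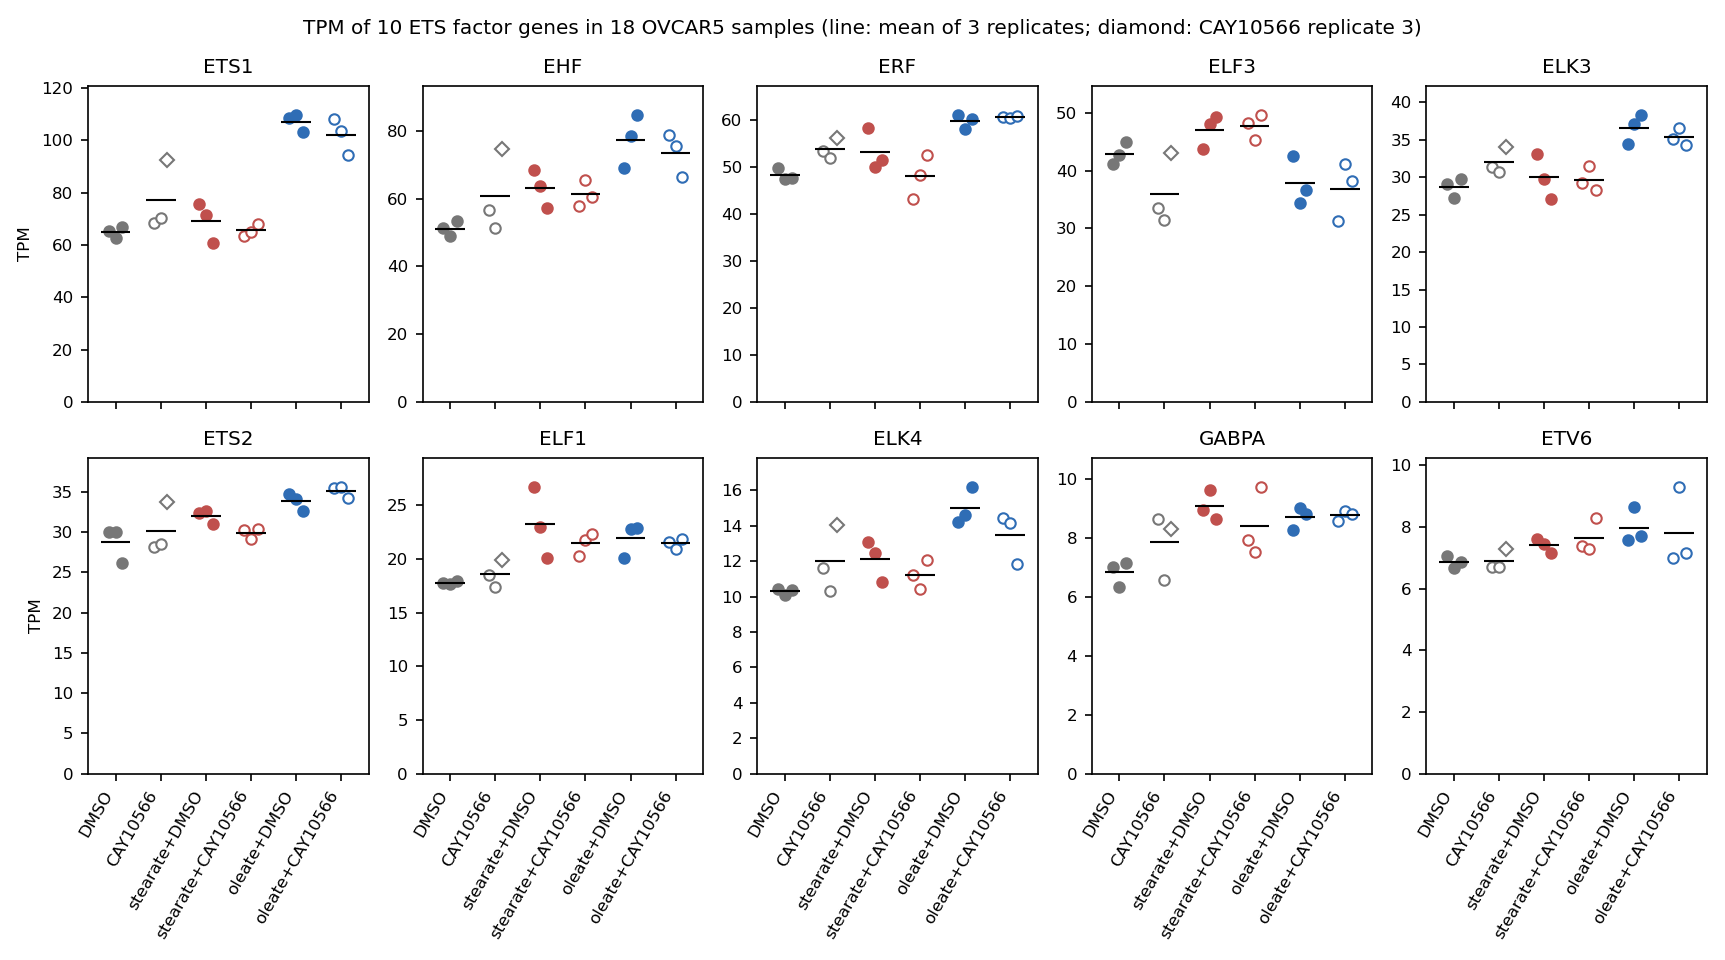
TPM (vertical axes, each from 0) of the 10 genes in the 18 samples by condition; lines are means of 3 replicates and the diamond is CAY10566 replicate 3. The oleate samples of ETS1 (94.6 to 110 TPM) lie above all others, and those of ELF3 (31.3 to 42.5) lie below all stearate samples (43.7 to 49.7).

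How often groups separated fully can be counted as well. For stearate against control, 1 of the 10 genes had ranges that did not overlap (ELF1), beside 7.79% of all genes. Between stearate and oleate, ETS1 set aside, there were 2 of 9 (ELF3 higher and ELK3 lower), beside 10.2%. For oleate against control there were 4 (ETS1, ELF1, ELK3 and ERF, all higher), beside 4.06%, a comparison used in the choice. Without CAY10566 replicate 3 the counts were 3 for stearate (ELF1, EHF and ETV6), beside 14.6%, and 7 for oleate, beside 19.7%. The 3 that still overlapped for oleate were ELF3, ETV6 and GABPA.

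CAY10566 was tested to see whether blocking SCD1 changes expression with or without fatty acid. Over 9 samples against 9, with the fatty acid group in the model, limma called 0 of the 10 genes, beside 0% of all genes, and at an unadjusted p under 0.05 there were 0 of the 10 genes and 748 of all genes. The log2 fold changes ran from -0.09 for ELF3 (95% interval -0.23 to 0.05, adjusted p = 0.984) to 0.04 for EHF (95% interval -0.11 to 0.19, adjusted p = 0.999). Within control, within stearate and within oleate 0 of the 10 genes were called, beside 0%, 0.00725% and 0% of all genes, and 4, 1 and 0 of them had an unadjusted p under 0.05, beside 1399, 761 and 651 of the 13789 genes. The 4 within control were ETS1, ERF and ELK3, which were higher with the inhibitor, and ELF3, which was lower, and the 1 within stearate was ERF. Without CAY10566 replicate 3, the value within control was 0.12 for ERF (adjusted p = 0.903) and 0.11 for ELK3 (adjusted p = 0.929). ELF3 within control gave -0.26 ± 0.11 (SE, adjusted p = 0.467), and -0.39 ± 0.10 without CAY10566 replicate 3 (adjusted p = 0.661), where the other 2 inhibitor samples (33.5 and 31.5 TPM) lay below the 3 DMSO samples (41.2 to 44.9). ETS1 within control gave 0.23 ± 0.10 (adjusted p = 0.455) and 0.10 ± 0.08 without that sample (adjusted p = 0.929). Tests of whether the inhibitor altered the response called 0 of the 10 genes for stearate, beside 0.00725% of all genes, and 0 of the 9 genes other than ETS1 for oleate, beside 0%. At an unadjusted p under 0.05 there were 2 for stearate (ETS1 and ERF) and 1 of these 9 for oleate (ELK4), beside 1290 and 1415 of the 13789 genes. For ELF3 the interaction with stearate was 0.28 (95% interval -0.05 to 0.62, adjusted p = 0.556), and 0.42 without CAY10566 replicate 3 (adjusted p = 0.678), and for ERF it was -0.30 ± 0.09 (SE, adjusted p = 0.452), and -0.27 without that sample (adjusted p = 0.715).

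The genes whose log2 values followed ETS1 most closely over the 18 samples are named by their Pearson r, as a description without a test, since all points share the same libraries and the same oleate samples. They were G3BP1 (r = 0.976), THBS1 (0.975), RAPGEF5 (0.972), BMAL2 (0.972) and B4GALT5 (0.970), of 13788 genes. G3BP1 encodes a stress granule protein, and its mean was 102 TPM in control, 99 with stearate and 125 with oleate. THBS1, which encodes the matrix glycoprotein thrombospondin, had 26.6, 22.8 and 39.4 TPM, and B4GALT5, a galactosyltransferase gene, 50.1, 45.4 and 74.4. RAPGEF5, for an exchange factor of Rap GTPases, had 3.31, 3.10 and 4.56 TPM and BMAL2, a relative of the clock gene BMAL1, 30.9, 29.6 and 37.5. Over 17 samples without CAY10566 replicate 3, the closest were G3BP1 (0.988), EHD4 (0.980), B4GALT5 (0.978), THBS1 (0.977) and RAPGEF5 (0.974). EHD4, for a protein of endosomal traffic, had 63.6, 61.3 and 76.2 TPM. Of the other ETS genes described, ELK3 (0.917), ELK4 (0.880), ERF (0.869), EHF (0.849) and ETS2 (0.813) were nearest to ETS1, ETV6 (0.494), GABPA (0.420) and ELF1 (0.380) farther, and ELF3 had r = -0.496. Among the 13788 genes, ELK3 was at place 138 from the highest r and ETS2 at place 833. Most of the 10 genes also had long transcripts: the median length of the longest transcript was 5110 nt, against 3459 nt for all tested genes. Of the 10, 9 exceeded that median, all but ERF (2672 nt). The median GC content of the 10 was 43.2%, against 48.4%, with ERF (63.9%), ELF3 (56.0%) and ETS2 (49.2%) above the latter.

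Among the other 8 tested ETS genes, 1 was called higher and 0 lower for stearate against control, beside 5.35% of all genes, and 5 were higher at the FDR alone, beside 19.4%. Of these 5, ELF2 (adjusted p = 0.0824) and ETV4 (adjusted p = 0.253) missed the FDR after rescaling by size factors. The median of the 8 genes before rescaling was 0.17, beside 0.06. The gene called was ETV1, a PEA3-group factor, with 7.29 ± 0.854 TPM in control (SD, n = 6), 11.1 ± 3.10 with stearate and 7.12 ± 1.28 with oleate, and a log2 fold change against control of 0.52 ± 0.14 (SE, adjusted p = 0.0137). It was also called against oleate (0.55, adjusted p = 0.00768). ETV5 had 64.0 ± 3.69, 80.3 ± 6.03 and 69.4 ± 2.02 TPM, and 0.3215 ± 0.05 against control (SE, adjusted p = 9.88e-05), just short of the fold limit, which it passed without CAY10566 replicate 3 (0.34, adjusted p = 6.84e-05). ETV2 gave -0.40 (95% interval -0.87 to 0.07, adjusted p = 0.223).

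Partners and kinases of ETS factors were listed as 11 genes, all tested. For stearate against control, 1 was called higher (EP300, a histone acetyltransferase, 0.38 ± 0.10, adjusted p = 0.0107) and 0 lower, beside 5.35% of all genes, and 3 were higher at the FDR alone, among them RUNX1, a DNA-binding partner of ETS1 (0.29, adjusted p = 0.0386), which was past both limits without CAY10566 replicate 3 (0.39, adjusted p = 0.000693). In all, 4 of the 11 were called higher without that sample, beside 7.72% of all genes called in either direction. After rescaling by size factors RUNX1 missed the FDR (0.24, adjusted p = 0.0507). The median of the list was 0.17, beside 0.06 for all genes. Between stearate and oleate 0 of these 11 were called or passed the FDR alone, beside 6.37% and 21.1% of all genes, and the median was -0.08, beside -0.03.

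Of 13 genes listed as targets of ETS1 and ETS2, known as such from other work, 6 were tested. For stearate against control 1 was called lower, beside 5.35% of all genes called in either direction. This was MMP1, a collagenase gene, with 5.27 ± 0.776 TPM in control, 2.99 ± 0.436 with stearate and 4.71 ± 0.590 with oleate, a log2 fold change of -0.65 ± 0.09 (SE, adjusted p = 0.000111). PLAU, for the urokinase plasminogen activator, gave -0.20 (adjusted p = 1.76e-05) and TIMP1, for an inhibitor of such proteases, 0.15 (adjusted p = 0.035), both at the FDR alone, and TIMP1 missed it without CAY10566 replicate 3 (0.11, adjusted p = 0.0516) and after rescaling by size factors (0.09, adjusted p = 0.334). Between stearate and oleate 2 of the 6 were called lower, beside 6.37% of all genes called in either direction, MMP1 (-0.52, adjusted p = 0.000634) and MET, a receptor tyrosine kinase gene (-0.39, adjusted p = 8.39e-05), which was named after its value was seen. The median of the 6 was -0.11 against control, beside 0.06 for all genes, and -0.29 against oleate, beside -0.03.

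Of 7 genes listed for ELF3 and EHF, 5 were tested, and 1 was called higher with stearate in both comparisons, beside 5.35% of all genes called against control and 6.37% against oleate. This was LCN2, the gene for lipocalin 2, with 1970 ± 252 TPM in control, 2500 ± 142 with stearate and 1810 ± 64.5 with oleate, and log2 fold changes of 0.35 ± 0.06 against control (SE, adjusted p = 0.000995) and 0.47 ± 0.06 against oleate (adjusted p = 4.21e-05). The value against control was 0.29 without CAY10566 replicate 3 (adjusted p = 0.000467) and 0.29 after rescaling by size factors (adjusted p = 0.0122), both short of the fold limit. KRT8, a keratin gene, gave -0.24 against control at the FDR alone (adjusted p = 2.12e-05), and TGFBR2, a receptor gene, gave -0.09 (adjusted p = 0.224), and -0.14 after rescaling (adjusted p = 0.00876). The median of the 5 was -0.08, beside 0.06 for all genes.

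The 8 genes listed for the ternary complex factors had 6 tested, of which 2 were called higher against control, beside 3.46% of all genes called higher, and 4 were higher at the FDR alone, beside 19.4% in either direction. EGR1, an immediate early gene, had 19.3 ± 1.03 TPM in control, 42.3 ± 5.15 with stearate and 24.2 ± 2.24 with oleate, a log2 fold change of 1.08 ± 0.07 against control (SE, adjusted p = 8.71e-09) and 0.78 ± 0.07 against oleate (adjusted p = 2.18e-07). FOS gave 0.50 (adjusted p = 0.000613) and 0.40 (adjusted p = 0.00305) in the same order, and JUNB 0.30 against control at the FDR alone (adjusted p = 5.34e-06). The list's median was 0.23 against control and 0.23 against oleate, beside 0.06 and -0.03 for all genes, while the ELK3 and ELK4 values against oleate were below 0. Of the 10 genes listed for GABP, all tested, 0 were called by limma for stearate against control, beside 5.35% of all genes. At the FDR alone 2 were higher and 1 lower, beside 19.4% in either direction. These were TFAM, for the mitochondrial transcription factor (0.25, adjusted p = 0.00181), NDUFS1, of respiratory complex I (0.16, adjusted p = 0.00646), and MRPS12, of the mitochondrial ribosome (-0.14, adjusted p = 0.0209). The median of the GABP list was 0.01, beside 0.06.

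Markers were used to check the cells. All 6 epithelial markers were high, from 49.8 TPM for CDH1 to 895 for KRT8, whereas of the 5 serous ovarian carcinoma markers PAX8 had 11.8 TPM, MSLN 1.02 and MUC16, ESR1 and WT1 0.632, 0.471 and 0.126, so the labelled serous type was not borne out by most of these. Leukocyte, endothelial and fibroblast markers had a mean under 1 TPM (PTPRC 0.00556, PECAM1 0.326, CDH5 0.911 and DCN 0.0183 TPM among them) apart from CD68 with 94.5 and COL1A1 with 5.04. Some markers moved with the fatty acid groups. CD68 had 85.7 ± 3.16 TPM with stearate and 103 ± 7.07 with oleate, a log2 fold change of -0.27 at the FDR alone (adjusted p = 0.00245). The 3 endothelial markers, below the filter and not tested, summed to 1.11 to 1.70 TPM in control, 0.53 to 0.89 with stearate and 1.46 to 2.39 with oleate. The summed level of the epithelial markers was 2740 to 2870 TPM in control, 2240 to 2410 with stearate and 2480 to 2740 with oleate. Against control 1 of 6 was called lower with stearate (KRT18, -0.44 ± 0.04, SE, adjusted p = 6.7e-07), beside 5.35% of all genes called in either direction. At the FDR alone 3 were lower, beside 19.4%. After rescaling by size factors KRT19 was called as well (-0.35, adjusted p = 3.02e-05). CLDN7 (-0.13, adjusted p = 0.0167) and CDH1 (-0.17, adjusted p = 0.0382) then passed the FDR alone. CD68 against control was -0.13 (adjusted p = 0.105), and -0.19 after rescaling (adjusted p = 0.0185). The part of these markers in the values of the 10 genes was not tested.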

How the data were processed

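RNA of 18 OVCAR5 samples was sequenced as paired-end reads from stranded mRNA libraries. The authors trimmed the reads with Trim Galore, aligned them with STAR 2.7.1a to GRCh38 (Ensembl release 99), quantified expression with RSEM and deposited TPM per gene, which sums to the same total in every sample. A single line that named no gene was left out. Conditions and replicate numbers come from the sample labels.

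Symbols, transcript lengths and GC content were taken from GENCODE release 44 and matched 56321 identifiers (93.1%), and 13627 of the 13789 tested genes (98.8%) had a length. Genes whose mean was 1 TPM or more were tested on log2(TPM + 1) with limma 3.58.1 in R 4.3.3 (lmFit and eBayes with a trend, tested on simulated data), with Benjamini-Hochberg adjustment over all tested genes. Fatty acid groups of 6 samples were compared, each holding the samples with and without CAY10566. The inhibitor was compared over 9 and 9 samples in a model that also held the fatty acid, and within groups and as interactions in a model of the 6 conditions. Intervals are 95% intervals from the moderated t distribution. Tables and figures were made with Python 3.11.15, pandas 2.3.3 and matplotlib 3.10.9.

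The genes described, the other gene lists (written from general knowledge) and the tests were chosen with earlier results of these data known. Named besides the 10 genes are the 3 members of each list with the largest change for stearate against control, the 5 genes closest to ETS1 over 18 and over 17 samples, and the markers. MET falls outside this rule and was named after its value was seen. A single gene of the list of partners and kinases is not reported here. Alternatives were a pseudocount of 0.1, no filter, a filter at 5 TPM, eBayes without a trend, size factors, a replicate block, removal of a length and GC trend (splines with 3 degrees of freedom), DMSO or CAY10566 samples only, CAY10566 as a covariate and each sample left out. Removing the sample mean along with that trend was added after seeing the data.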

Additional observations from a re-analysis of the deposited data

Results flagged for a closer look

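Each of the 10 genes was checked in the 3 fatty acid groups of 6 samples for a highest or lowest sample far from the rest, by Dixon's gap over range at the 95% level. Of the 30 groups checked, 3 held such a sample, where chance gives about 1 in 20 groups, or 1.5. ETS1 in CAY10566 replicate 3 was 92.48 TPM, against 62.9 to 70.5 in the other control samples. EHF in the same sample was 74.64 TPM, against 48.9 to 56.7. ERF in oleate+DMSO replicate 2 was 58.02 TPM, against 60.1 to 61.1 in the other oleate samples.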

How the results depend on the processing

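Over the alternatives, the number of the 10 genes called for stearate against control changed from 0 to 2 with the DMSO samples only, which were ELF1 and GABPA, and that for stearate against oleate from 2 to 1. With the CAY10566 samples only, the latter stayed at 2, with ERF in place of ELF3. For stearate against oleate, leaving out each sample in turn gave 1 to 2, with 1 (ETS1) without oleate+DMSO replicate 2 and without oleate+CAY10566 replicate 1. For oleate against control, the count of 3 stood beside 6.9% of all genes. It became 1 when the length and GC trend and the sample mean were removed, beside 1.96%. It became 2 with size factors, beside 3.34%, or with the length and GC trend removed, beside 4.09%. It was 0 with the CAY10566 samples only and 4 with the DMSO samples only, where ELK3 was added. Leaving out each sample in turn gave 2 to 3. Shares over all genes are not given here for fits of the DMSO or CAY10566 samples only, or with each sample left out. Nothing is read from those counts. No alternative changed the count of 0 for CAY10566 and its interactions. The replicate block left all counts as they were (0, 2 and 3), with adjusted p = 0.00789 for ELF3 against oleate. Replicate numbers are shared between conditions. Deviations of same-numbered samples had r from -0.18 to 0.103 over 45 pairs (median 0.012, with 2 over 0.1). Those of differently numbered samples had r from -0.124 to 0.171 (median -0.0109), and 9 of 18 samples were closest to their own number. Pairing by number was thus not evident, and the labels do not tell whether the numbers pair the samples.

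Several small differences, none of them called, changed sign, and the cause was not tested. For stearate against control, the DMSO samples alone gave 0.0869 for ETS1, 0.0589 for ELK3 and 0.136 for ERF, and the CAY10566 samples alone gave -0.0051 for ETS2 and -0.0796 for ELK4. Removing the length and GC trend gave -0.0202 for ELK4 and 0.0669 for ERF, and with the sample mean removed as well -0.0749 for ELK4 and 0.0122 for ERF. For stearate against oleate, removing the length and GC trend gave -0.0039 for ELF1, and with the sample mean removed 0.0199 for ETV6 and 0.022 for GABPA. The CAY10566 samples alone gave -0.0018 for ELF1, and for GABPA size factors gave 0.0319 and the DMSO samples 0.0545. For CAY10566 against DMSO, removing the length and GC trend gave -0.005 for ETV6.

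Leaving out each sample in turn gave, for stearate against control, -0.0996 to 0.011 for ETS1, -0.0545 to 0.0084 for ELK3 and -0.0573 to 0.0287 for ERF. For stearate against oleate it gave -0.0153 to 0.0645 for ELF1 and -0.0339 to 0.0331 for GABPA. For CAY10566 against DMSO the ranges were -0.0237 to 0.0553 for ETS1, -0.0197 to 0.02 for ETS2, -0.0462 to 0.0108 for ELF1, -0.0181 to 0.068 for EHF, -0.0647 to 0.0146 for ELK4, -0.0279 to 0.0249 for ETV6, -0.0045 to 0.0533 for GABPA and -0.011 to 0.0405 for ERF. The ELF3 call against oleate was lost within the DMSO samples (0.31, adjusted p = 0.0436) and within the CAY10566 samples (0.37, adjusted p = 0.159), and its adjusted p spanned 0.00145 to 0.159 over the alternatives. How deeply each sample was sequenced is unknown, so what depth limits cannot be given.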
